A study of Mus musculus with 29 samples.

Results

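Gpihbp1, Cd36, Fabp4, Fabp5, Rgcc and Igfbp7 are 6 genes active in capillary endothelium, and they were followed through the cells of the bone marrow niche. They were picked by symbol from the niche table, where each matched 1 of 18194 genes, and values of that table were known when they were picked. Their niche levels and genotype differences are therefore a description and lend no independent support to any pattern.

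The study compared niches with a wild-type genotype (WT) and niches haploinsufficient for Wnt5a, in which 1 copy of the gene for this secreted signal is missing. Cells sorted from the niche by flow cytometry were labelled EC (endothelial), OBC (osteoblastic) and MSC (mesenchymal), with 3 WT and 3 Wnt5a libraries each. LSK cells, the lineage-negative, Sca-1-positive, Kit-positive fraction with the blood stem cells, were taken after transplantation, 6 libraries from WT and 5 from Wnt5a niches. All libraries carry the strain label 129Ly5.1, and the labels give no age, sex, number of cells or animals per library, nor the cells in which the Wnt5a copy is lost. The niche libraries of different groups carry no shared replicate number, and nothing states that libraries of a group came from separate animals, so p-values measure the spread between libraries. Whether EC, OBC and MSC libraries share animals is also not stated, and averages over them take the libraries as independent.

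Niche libraries held 10635 to 117989 unique molecular identifiers (UMIs), each marking a single cDNA molecule, with 10635 to 29772 in OBC, 18542 in EC Wnt5a replicate 16 and 19999 in MSC Wnt5a replicate 4. Levels are given as CPM, the UMIs of a gene per 1000000 UMIs of the 1099 genes that passed the low-count filter, after TMM scaling. EC replicates 13, 14 and 15 are WT and 16, 17 and 18 are Wnt5a, OBC replicates 7 to 9 are WT and 10 to 12 are Wnt5a, and MSC replicates 1 to 3 are WT and 4 to 6 are Wnt5a. In EC WT replicate 14, haemoglobin transcripts took 24.3% of the UMIs, the highest share of any EC library. The level of Wnt5a itself in the niche was not analysed here.

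Capillary endothelium takes up fat from the blood in steps. GPIHBP1 carries lipoprotein lipase to the vessel lumen, where the enzyme frees fatty acids from triglyceride-rich lipoproteins, and CD36 is a membrane receptor for these fatty acids. FABP4 and FABP5 are small cytosolic proteins that bind fatty acids inside the cell. RGCC (regulator of cell cycle) is a cytosolic protein linked to cell cycle kinases and to the response to complement and TGF-beta, and IGFBP7 is a secreted matrix protein of vessels that binds CD93 and type IV collagen.

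On GRCm38 all 6 genes are protein-coding. Gpihbp1 lies on chromosome 15 (75596628 to 75599481, plus strand), Cd36 on chromosome 5 (17781690 to 17888801, minus strand) and Rgcc on chromosome 14 (79288756 to 79301645, minus strand). Fabp5 (10012548 to 10016607, plus strand) and Fabp4 (10204088 to 10208576, minus strand) lie on the same stretch of chromosome 3, 187.5 kb apart. Igfbp7 lies on chromosome 5 (77349240 to 77408041, minus strand) and overlaps Polr2b and the antisense gene Gm34648 on the plus strand. Whether strand was used in counting is not given in the sources used here, so reads of these overlapping genes may not be separated, and Fabp5 may share reads with near-identical pseudogene copies.

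Rgcc and Igfbp7 had the most negative genotype differences when EC, OBC and MSC were averaged, and their promoters are shown with that of Cd36, an uptake gene. The sequences are RefSeq's on GRCm38.p6, 250 bases before to 50 after the start, read 5′ to 3′ along the gene. RefSeq promoters were matched for 3 of the 6 genes. Capitals mark the GC box, a binding motif of SP-family factors, searched as GGGCGG on both strands.
Rgcc, chr14:79301586-79301885, minus strand: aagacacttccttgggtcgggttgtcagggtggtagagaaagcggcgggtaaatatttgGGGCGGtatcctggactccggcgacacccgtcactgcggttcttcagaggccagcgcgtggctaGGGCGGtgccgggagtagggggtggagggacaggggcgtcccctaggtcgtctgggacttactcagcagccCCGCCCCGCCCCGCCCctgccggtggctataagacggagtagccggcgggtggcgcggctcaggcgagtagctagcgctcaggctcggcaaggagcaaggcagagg
Igfbp7, chr5:77407996-77408295, minus strand: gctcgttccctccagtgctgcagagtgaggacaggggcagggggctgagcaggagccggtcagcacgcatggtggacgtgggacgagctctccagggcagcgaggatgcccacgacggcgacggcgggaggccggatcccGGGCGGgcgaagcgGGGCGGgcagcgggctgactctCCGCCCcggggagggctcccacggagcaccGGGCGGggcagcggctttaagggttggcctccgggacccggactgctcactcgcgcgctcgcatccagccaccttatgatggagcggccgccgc
Cd36, chr5:17835847-17836146, minus strand: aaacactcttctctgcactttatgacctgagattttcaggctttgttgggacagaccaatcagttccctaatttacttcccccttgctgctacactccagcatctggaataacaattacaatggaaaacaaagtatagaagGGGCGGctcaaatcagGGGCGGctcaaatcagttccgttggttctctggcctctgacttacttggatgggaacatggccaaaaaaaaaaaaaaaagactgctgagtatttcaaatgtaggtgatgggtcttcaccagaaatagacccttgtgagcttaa
The Rgcc promoter held 5 GC boxes and 66.7% GC, and the Igfbp7 promoter held 4 GC boxes and 73.3% GC. The Cd36 window, which belongs to a start inside the annotated gene, held 2 GC boxes, in a repeated stretch, and 43.0% GC. Of 32851 mouse promoters of the same length, 35.7% held a GC box, with a median of 2 in those that did, and the median GC content was 52.7%. CCGGAA (the ETS core, in 14.9% of promoters), GTAAACA (forkhead, 3.65%) and TATAAA (13.6%), also searched on both strands, had no match in these windows.

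All 6 genes had their lowest mean level in OBC, and for all but Fabp5 the mean levels in EC and MSC lay closer to each other than to OBC. Because each UMI stands for a molecule whatever the gene's length, levels of different genes within the niche were set side by side. Fabp4 was the most abundant, with 19670 ± 4940 CPM in EC (SD, n = 6, both genotypes), 16850 ± 3797 in MSC and 7340 ± 2209 in OBC. It took from 49.5% to 81.9% of the UMIs of the 6 genes in a library. Gpihbp1 (3763 ± 822 CPM), Cd36 (3493 ± 1019) and Igfbp7 (3215 ± 629) came next in EC and did not differ beyond their spread. Rgcc followed at 1786 ± 786 CPM, and Fabp5, the other cytosolic carrier, was far lower at 149 ± 81.8 CPM.

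**Figure D1:**
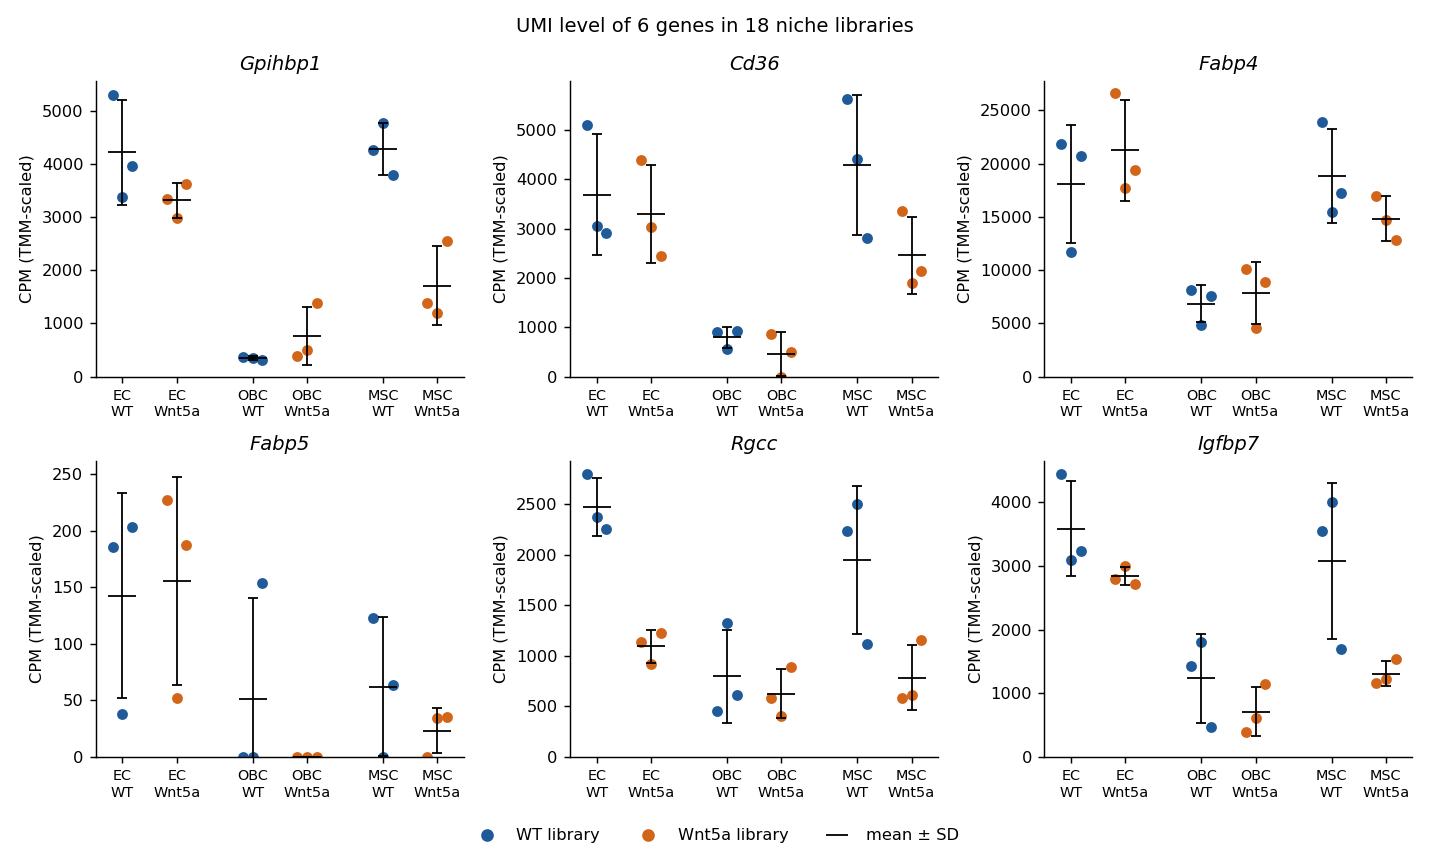
Level of each gene (CPM, TMM-scaled, linear axis from 0, a separate scale per gene) in the 18 niche libraries. Points are libraries, blue for WT and orange for Wnt5a, and bars are the mean ± SD of 3, with the lower part of a bar that would pass below 0 not drawn. All OBC libraries lie below all others for Cd36 and Fabp4, a separation whose share among all genes was not counted. Rgcc in EC lies from 2260 to 2803 CPM in WT and from 916.5 to 1228 in Wnt5a.

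The gap between EC and OBC differed in size among the genes. As a log2 difference in level, EC over OBC averaged over genotypes, it was 2.87 (SE 0.34) for Gpihbp1 and 2.52 (SE 0.36) for Cd36, the genes of the cell surface. It was 1.42 (SE 0.33) for Fabp4, 1.74 (SE 0.31) for Igfbp7 and 1.20 (SE 0.32) for Rgcc. Against MSC the same EC differences were 0.46 (SE 0.26), 0.10 (SE 0.29), 0.23 (SE 0.32), 0.67 (SE 0.27) and 0.39 (SE 0.27) for Gpihbp1, Cd36, Fabp4, Igfbp7 and Rgcc. Over both genotypes the ranges of the EC and MSC libraries overlapped for all 5. Among Wnt5a libraries alone, every EC library was above every MSC library for Gpihbp1 (2972 to 3630 against 1186 to 2554 CPM), Igfbp7 (2722 to 2998 against 1167 to 1539 CPM) and Fabp4 (17670 to 26660 against 12840 to 17000 CPM). The share of all tested genes separated in this way was not counted, so nothing particular to these genes is read from it.

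MSC WT libraries carried endothelial transcripts at the level of EC WT libraries, and MSC Wnt5a libraries at a lower level (15250 to 17000 CPM against 23910 to 28400 in EC Wnt5a). The summed level of 21 pan-endothelial genes ran from 24860 to 27070 CPM in MSC WT, within the 22490 to 31250 CPM of EC WT, and 21 of 21 were detected in both. Cdh5 (VE-cadherin, the endothelial junction protein) averaged 2649 ± 234 CPM in MSC WT and 3250 ± 559 in EC WT (SD, n = 3). The mesenchymal list summed to 5498 to 6925 CPM in MSC WT and to 172 to 466 CPM in EC WT, and the osteoblast list to 7842 to 28930 CPM in OBC WT and 287 to 502 CPM in EC WT. MSC libraries thus held mesenchymal and endothelial transcripts together, and the level of a capillary gene in MSC is a level in that mixture. In bulk samples of this kind, fewer cells of a type and less RNA of a gene per cell cannot be told apart.

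Rgcc was lower in Wnt5a libraries in EC. The WT replicates 13, 14 and 15 had 166, 124 and 189 UMIs, or 2803, 2370 and 2260 CPM. The Wnt5a replicates 16, 17 and 18 had 15, 70 and 46 UMIs, or 1136, 916.5 and 1228 CPM. The groups did not overlap, and the lowest WT library was well above the highest Wnt5a library. The means were 2478 ± 287 CPM in WT and 1094 ± 160 in Wnt5a (SD, n = 3). On the log2 scale the difference was -1.19 (SE 0.37). The difference did not pass edgeR's quasi-likelihood test adjusted over 1099 genes (adjusted p = 0.196, unadjusted p = 0.00222). In EC 8.46% of tested genes had all Wnt5a below all WT libraries.

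In MSC, Rgcc had 73, 65 and 35 UMIs (2237, 2499 and 1117 CPM) in WT replicates 1 to 3. It had 8, 18 and 33 UMIs (583.6, 609.8 and 1154 CPM) in Wnt5a replicates 4 to 6. A single pair overlapped, with WT replicate 3 just under Wnt5a replicate 6, and the log2 fold change was -1.28 (SE 0.40, adjusted p = 0.0798 in edgeR). It passed without MSC WT replicate 3 (-1.57, adjusted p = 0.0493) or EC WT replicate 14 (-1.28, adjusted p = 0.0421). OBC libraries held only 4 to 19 Rgcc UMIs, with 451.9, 1321 and 615.1 CPM in WT and 581.8, 405.1 and 885.9 CPM in Wnt5a. There the groups interleaved, with a log2 fold change of -0.43 (SE 0.54, adjusted p = 0.878 in edgeR). Without OBC WT replicate 8, the highest of them, the OBC value was 0.23.

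Averaged over EC, OBC and MSC, the Rgcc log2 fold change was -0.97 (SE 0.25, adjusted p = 0.022 in edgeR). As the gene was picked with niche values known, this p is a description and no evidence of a change. The genotype difference in EC minus that in MSC was 0.08 (SE 0.53, adjusted p = 0.995 in edgeR). Leaving out any of 6 single libraries ended the call of the average: MSC Wnt5a replicate 5, MSC WT replicates 1 and 2, OBC Wnt5a replicates 10 and 11, and OBC WT replicate 8. Without each of these the log2 fold change was -0.96 to -0.76 and edgeR's adjusted p 0.0576 to 0.176.

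Igfbp7, the vessel matrix protein, was the other gene called in the average, again as a description only. Its log2 fold change was -0.83 (SE 0.25, adjusted p = 0.0489 in edgeR). In MSC the WT replicates 1 to 3 had 3554, 3999 and 1691 CPM and the Wnt5a replicates 4 to 6 had 1167, 1220 and 1539 CPM. All 3 Wnt5a libraries were below all 3 WT libraries, and WT replicate 3 stood nearest to them, as it did for Rgcc. The MSC log2 fold change was -1.22 (SE 0.39, adjusted p = 0.0878 in edgeR), and in MSC 12.9% of tested genes had all Wnt5a below all WT libraries. It passed without MSC WT replicate 3 (-1.53, adjusted p = 0.0493) or EC WT replicate 14 (-1.23, adjusted p = 0.0444). In EC the values were 4441, 3096 and 3229 CPM in WT and 2802, 2998 and 2722 CPM in Wnt5a, again with no overlap but with WT replicate 14 just above Wnt5a replicate 17, and the log2 fold change was -0.33 (SE 0.37, adjusted p = 0.837 in edgeR).

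OBC libraries held 3 to 26 Igfbp7 UMIs, with 1431, 1808 and 461.3 CPM in WT and 387.9, 607.6 and 1139 CPM in Wnt5a. These overlapped, with a log2 fold change of -0.93 (SE 0.51, adjusted p = 0.607 in edgeR). The call of the Igfbp7 average was lost without any 1 of 13 of the 18 libraries, at a log2 fold change of -0.88 to -0.73 and an edgeR adjusted p of 0.0592 to 0.145. The other 5 libraries, whose removal kept it, were EC WT replicates 14 and 15, MSC WT replicate 3, OBC WT replicate 9 and OBC Wnt5a replicate 12.

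Of the 5 genes that passed the low-count filter, 0 passed edgeR's test in EC, where 0.364% of all tested genes passed. In OBC 0 of 5 passed against 1.27% of all genes, in MSC 0 of 5 against 0.455%, and in the average 2 of 5 against 3.09%. Of all genes tested, 0.91% passed in the average with a lower level in Wnt5a, as Rgcc and Igfbp7 did. At an unadjusted p under 0.05 stood 89 genes (8.1%) in EC, 92 (8.37%) in OBC, 203 (18.5%) in MSC and 182 (16.6%) in the average. Of the 5 genes, 1 stood there in EC (Rgcc), 0 in OBC and 3 in the average (Cd36, Rgcc and Igfbp7). In MSC Gpihbp1, Rgcc and Igfbp7 stood there, and Cd36 was the last of the 203, at an edgeR p that rounds to 0.05. DESeq2 and limma voom also called 0 of the 5 in EC and OBC. In MSC DESeq2 called 3, limma voom 1 and edgeR on the 6 MSC libraries alone 3. Calls among all genes in MSC also varied with the setting, from 0 to 115 over the alternatives run against 5 in the main fit. In the average neither Rgcc (adjusted p = 0.0776) nor Igfbp7 (adjusted p = 0.141) passed in edgeR with no filter on low counts, and limma voom called Rgcc and not Igfbp7 (adjusted p = 0.0759). DESeq2 called both in the average. The genes were picked with these contrasts in view, so nothing is read from the counts.

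**Figure D2:**
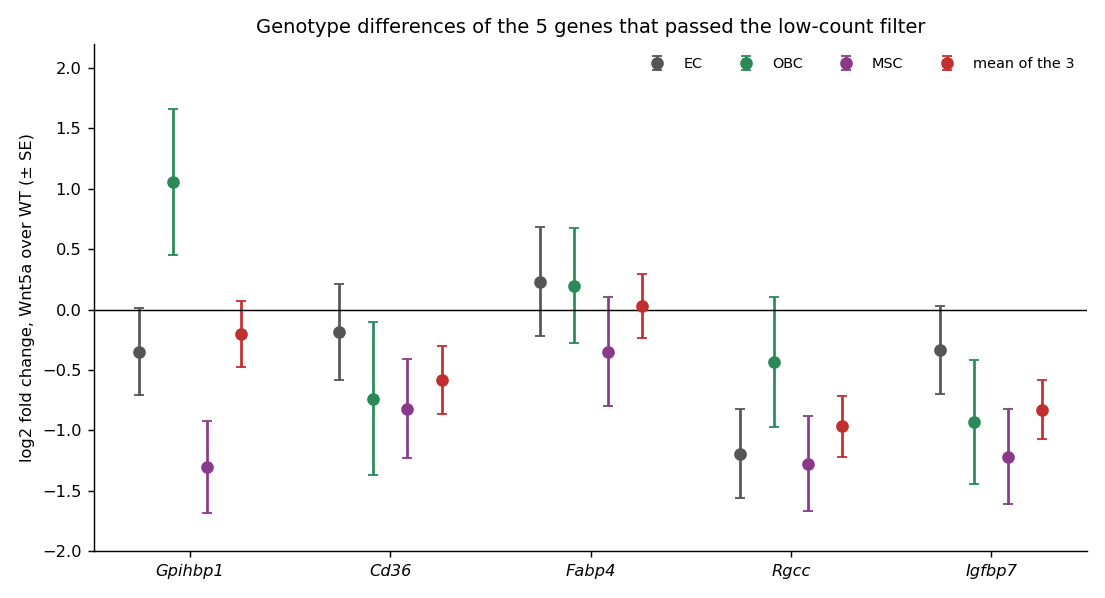
Log2 fold change, Wnt5a over WT, with SE, of the 5 genes that passed the low-count filter, in EC, OBC and MSC and as the mean of the 3. The Rgcc and Igfbp7 values lie below 0 in each population (Rgcc from -1.28 to -0.43), Gpihbp1 lies at 1.05 in OBC and -1.31 in MSC, and the mean of Fabp4 lies near 0.

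Gpihbp1, the lipase anchor, had the widest range of genotype differences across populations among the 5 genes. In MSC the WT replicates 1 to 3 had 4259, 4768 and 3797 CPM and the Wnt5a replicates 4 to 6 had 1386, 1186 and 2554 CPM. All Wnt5a libraries were below all WT libraries, at means of 4275 ± 486 and 1709 ± 739 CPM (SD, n = 3). The MSC log2 fold change was -1.31 (SE 0.38), short of the threshold in edgeR's test (adjusted p = 0.06), and it passed without EC WT replicate 14 (adjusted p = 0.0264) or EC WT replicate 15 (adjusted p = 0.0438).

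In OBC the order was the opposite, on few molecules. WT replicates 7 to 9 had 5, 5 and 2 UMIs (376.6, 347.7 and 307.5 CPM) and Wnt5a replicates 10 to 12 had 4, 5 and 11 UMIs (387.9, 506.4 and 1392 CPM). All Wnt5a values were above all WT values, where 7.37% of tested genes were so in OBC, but the lowest Wnt5a and highest WT libraries differed by less than the worth of 1 UMI, and 3 UMIs correspond to 208.6 to 461.3 CPM in OBC WT. The log2 fold change was 1.05 (SE 0.61, adjusted p = 0.617 in edgeR). In EC the values were 5302, 3383 and 3958 CPM in WT and 3332, 2972 and 3630 CPM in Wnt5a, which overlapped (log2 fold change -0.35, SE 0.36, adjusted p = 0.823 in edgeR).

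The difference between populations was tested and did not pass for any of the 5 genes with edgeR, DESeq2 or limma voom, and in edgeR only Gpihbp1 in OBC minus MSC had an unadjusted p under 0.05. For Gpihbp1 the values were as follows. The genotype difference in OBC minus that in MSC was 2.36 on the log2 scale (SE 0.71, adjusted p = 0.157 in edgeR), in EC minus MSC it was 0.96 (SE 0.52, adjusted p = 0.766) and in EC minus OBC -1.40 (SE 0.70, adjusted p = 0.577). In these comparisons 0.364%, 0% and 0.364% of all genes passed, for OBC minus MSC, EC minus MSC and EC minus OBC in turn.

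Cd36, the fatty acid receptor, had lower means in Wnt5a in each population, and the genotypes overlapped in each. EC WT replicates 13 to 15 had 5099, 3058 and 2918 CPM and EC Wnt5a replicates 16 to 18 had 4392, 3037 and 2455 CPM. MSC WT replicates 1 to 3 had 5638, 4422 and 2808 CPM and MSC Wnt5a replicates 4 to 6 had 3356, 1897 and 2134 CPM. The groups overlapped in both populations, with log2 fold changes of -0.19 (SE 0.40, adjusted p = 0.923 in edgeR) in EC and -0.82 (SE 0.41, adjusted p = 0.269 in edgeR) in MSC. The EC value changed sign without EC WT replicate 13 (0.11). In OBC it was -0.74 (SE 0.63, adjusted p = 0.797 in edgeR) and on average -0.58 (SE 0.28, adjusted p = 0.289, unadjusted p = 0.0452). OBC libraries held 0 to 12 UMIs, and OBC Wnt5a replicate 11, with 0, allows up to 303.8 CPM.

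Fabp4, the abundant carrier, had the largest counts and no steady direction. EC WT replicates had 21810, 11710 and 20740 CPM, where the low value was replicate 14, and EC Wnt5a replicates had 26660, 17670 and 19430 CPM. The log2 fold change was 0.23 in EC (SE 0.45, adjusted p = 0.92 in edgeR), 0.20 in OBC (SE 0.48, adjusted p = 0.949) and -0.35 in MSC (SE 0.46, adjusted p = 0.721), and 0.03 on average (SE 0.27, adjusted p = 0.978). The EC value turned to -0.02 without EC WT replicate 14, and the OBC value to -0.03 without OBC Wnt5a replicate 10 and to -0.02 without OBC WT replicate 8.

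MSC libraries had 23870, 15500 and 17230 CPM of Fabp4 in WT and 17000, 14670 and 12840 CPM in Wnt5a. OBC libraries had 8134, 4868 and 7535 CPM in WT and 10090, 4557 and 8859 CPM in Wnt5a, so the groups overlapped in each population. Fabp5, below the low-count filter and so without a fold change, had 11, 2 and 17 UMIs in EC WT and 3, 4 and 7 in EC Wnt5a. It had 4, 0 and 2 UMIs in MSC WT, 0, 1 and 1 in MSC Wnt5a, 0, 0 and 1 in OBC WT and 0 in each OBC Wnt5a library, where a count of 0 allows 290.9 to 379.7 CPM.

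The summed level of the pan-endothelial genes also differed between the MSC groups, although no single gene of the list passed. It was 24860 to 27070 CPM in MSC WT and 15250 to 17000 CPM in MSC Wnt5a, and 18 of 18 tested genes of the list had negative log2 fold changes there (median -0.70), of which 0 passed. Of all genes tested in MSC 52.4% were negative (median -0.034). In EC 10 of 18 were negative (median -0.16), beside 53.7% of all genes, with sums of 22490 to 31250 CPM in WT and 23910 to 28400 in Wnt5a. In OBC 6 of 18 were negative, beside 50.5% of all genes, and 0 of 18 passed in either. The members were therefore also counted per 100 pan-endothelial UMIs of the same library.

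On this scale Rgcc in EC had 8.97, 10.5 and 7.84 per 100 in WT replicates 13 to 15. It had 4.0, 3.81 and 5.13 in Wnt5a replicates 16 to 18, with no overlap. The share of all genes without overlap on this scale was not counted. In MSC Rgcc had 8.46, 9.23 and 4.49 in WT and 3.43, 4.0 and 6.88 in Wnt5a, which overlapped. Gpihbp1 in MSC had 16.1, 17.6 and 15.3 in WT and 8.16, 7.78 and 15.2 in Wnt5a, so that Wnt5a replicate 6 came up to the lowest WT library. Igfbp7 overlapped in both, with 11.2 to 14.2 against 9.87 to 12.5 in EC and 6.80 to 14.8 against 6.87 to 9.17 in MSC. In OBC the ratios rested on few UMIs and ran from 5.61 to 23.8 for Rgcc in WT.

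Refitted with pan-endothelial UMIs as the library size, a scaling chosen after these sums were seen, the Rgcc log2 fold change was -1.07 in EC (SE 0.44, adjusted p = 0.538 in edgeR) and -0.60 in MSC (SE 0.46, adjusted p = 0.426). In MSC it was -0.64 for Gpihbp1 (SE 0.42, adjusted p = 0.339) and -0.53 for Igfbp7 (SE 0.46, adjusted p = 0.495). The averages of Rgcc (-0.81, SE 0.29, adjusted p = 0.114) and Igfbp7 (-0.67, SE 0.29, adjusted p = 0.198) no longer passed. Between populations, the same scaling left an EC over OBC difference of 1.19 (SE 0.37) for Gpihbp1 and 0.81 (SE 0.40) for Cd36, while it was 0.01 (SE 0.36) for Igfbp7 and turned to -0.31 (SE 0.38) for Fabp4 and -0.53 (SE 0.37) for Rgcc.

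**Figure D3:**
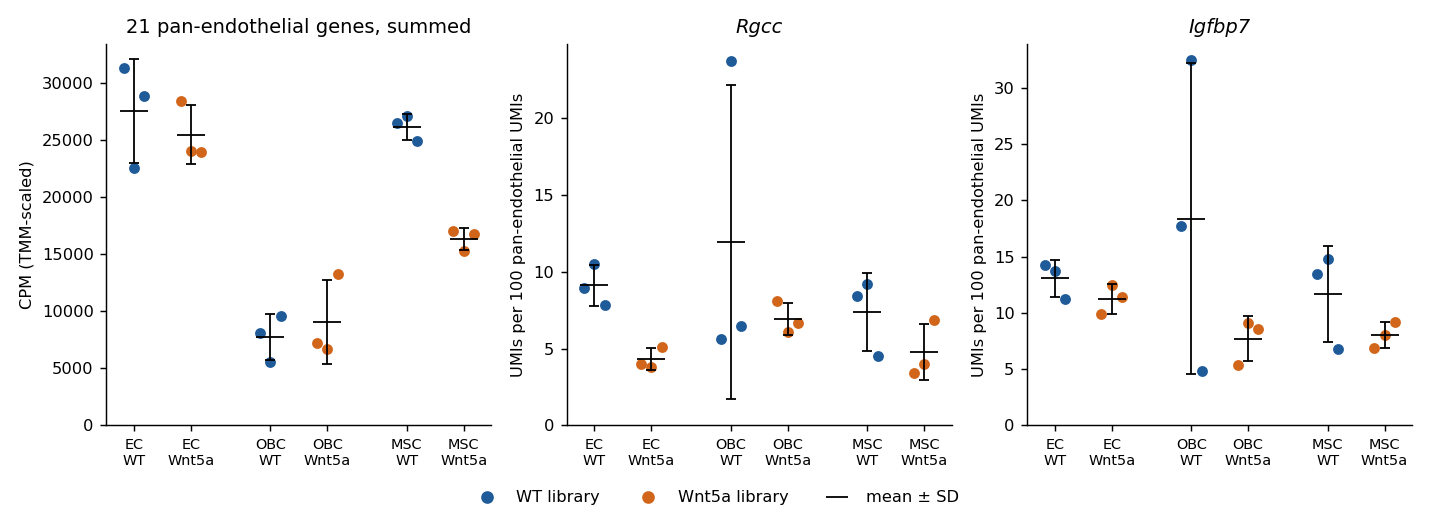
Left, summed level of 21 pan-endothelial genes (CPM, TMM-scaled). Middle and right, Rgcc and Igfbp7 as UMIs per 100 pan-endothelial UMIs. Points are niche libraries, blue for WT and orange for Wnt5a, bars the mean ± SD of 3, and all axes are linear from 0. The MSC sum lies from 24860 to 27070 CPM in WT and from 15250 to 17000 in Wnt5a, and Rgcc in EC lies from 7.84 to 10.5 in WT and from 3.81 to 5.13 in Wnt5a.

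Markers of other cells also differed between genotypes beside these values. The 9 neutrophil genes summed to 456 to 730 CPM in EC WT and 2135 to 3862 CPM in EC Wnt5a. In EC 0 of 5 tested were negative and 4 passed, beside 0.364% of all genes. Among the 4 were Ngp (log2 fold change 2.85, SE 0.50, adjusted p = 0.000661 in edgeR) and S100a9 (2.29, SE 0.43, adjusted p = 0.00109). In MSC the neutrophil genes summed to 1615 to 2106 CPM in WT and 3794 to 6030 in Wnt5a, and in OBC to 4971 to 9041 and 10380 to 16310. Of 8 macrophage genes in the table, Csf1r, C1qa, C1qb and C1qc were at 0 in EC WT and EC Wnt5a, Lyz2 was the most abundant (87.4 and 140 CPM), and the list summed to 95.6 to 251 CPM in EC WT and 75.7 to 498 in EC Wnt5a. Of the adipocyte list, cells that also make FABP4, Adipoq averaged 666 ± 276 CPM in OBC WT (SD, n = 3), 301 ± 416 in OBC Wnt5a and at most 25.2 CPM in the other groups. The rest of that list was all but absent from OBC WT, with 0 UMIs of Cfd and Retn and 1 of Plin4. Only 4 of its 7 genes had an entry for the niche. In EC the megakaryocyte genes summed to at most 50.7 CPM in WT and 75.7 to 314 CPM in Wnt5a, and the pericyte genes to 268 to 1208 and 909 to 961 CPM. The mesenchymal genes summed to 172 to 466 CPM in EC WT and 602 to 1068 in EC Wnt5a, with 6 of 6 tested positive and 0 called. The osteoblast genes summed to 7842 to 28930 CPM in OBC WT and 3291 to 8710 in OBC Wnt5a. There 4 of 4 tested were negative (median log2 fold change -1.91) and 3 passed, beside 1.27% of all genes. Of 8 erythroid genes tested, 8 were negative in EC and 0 in OBC or MSC, and 0 passed. Their sum in EC WT ran from 27000 to 445500 CPM with a median of 36730, against 53690 to 89290 CPM in EC Wnt5a. The EC WT median thus lay below every EC Wnt5a library, and only EC WT replicate 14, with 24.3% haemoglobin, lay above them. The part of these cells in the values of the 6 genes was not tested.

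Endothelial genes were also counted by vessel type. The capillary list shares Kdr, Emcn and Plvap with the pan-endothelial list and Tcf15 and Meox2 with the uptake regulators, so these counts are not separate. Of 7 tested genes of a list of other capillary genes 0 passed, 2 were negative in EC (median 0.38) and 7 were negative in MSC (median -0.53). Kdr, the main VEGF receptor, had the smallest p in EC, at a log2 fold change of 0.89 (SE 0.36, adjusted p = 0.456 in edgeR), and Cd300lg, a capillary surface glycoprotein, in MSC, at -1.37 (SE 0.47, adjusted p = 0.122). Sinusoidal genes summed to 554 to 2129 CPM in EC WT and 454 to 1868 in EC Wnt5a, with 0 of 3 tested passing, and arterial genes to 1070 to 1908 and 1014 to 1590 CPM, with 0 of 1 passing.

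The genes most like each of the 5 genes that passed the low-count filter over the 18 niche libraries were found by Pearson's r of log2 CPM, as a description, since the libraries share populations and depth. Gpihbp1 was most like Npr1 (r = 0.973), the natriuretic peptide receptor, Aqp1 (0.962), a water channel, and Ly6a (0.951), which encodes Sca-1. Cd36 was most like Id1 (0.962), C1qtnf9 (0.919) and Myl12a (0.908), and Fabp4 like Id1 (0.902), Cavin2 (0.897) and Tmsb4x (0.894). Rgcc had the loosest best match, Selenow (0.867), followed by Igfbp7 itself (0.834) and Ly6c2 (0.827). Igfbp7 was most like Ctla2a (0.947), Rac1 (0.932) and Nrp1 (0.929).

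Among the genes themselves, r over the same 18 libraries after removing group means differed by pair. It was 0.777 between Cd36 and Fabp4 and 0.605 between Rgcc and Igfbp7. Between Fabp4 and Rgcc it was -0.05, and between Fabp4 and Igfbp7 -0.10, while Cd36 had 0.268 with Rgcc and 0.01 with Igfbp7. Gpihbp1 had 0.569 with Rgcc and 0.625 with Igfbp7, against 0.162 with Cd36 and 0.129 with Fabp4. The 6 OBC libraries, with 0 to 12 Cd36 UMIs each, entered these values, so counting error is part of them. Shared regulation of any pair was not tested.

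Genes of the surrounding pathway were counted in 6 lists, and 0 of the 24 genes tested passed edgeR's test in EC, OBC, MSC or their average. At an unadjusted p under 0.05 stood 0 in EC (8.1% of all genes), 3 in OBC (8.37%), 6 in MSC (18.5%) and 7 in the average (16.6%). Of 13 genes of lipoprotein docking and lipolysis 5 were tested, with a median log2 fold change of -0.27 in EC, -0.36 in OBC and -0.67 in MSC. Lpl, the lipase that GPIHBP1 carries, had 1559 ± 233 CPM in EC WT and 1178 ± 126 in EC Wnt5a (log2 fold change -0.41, SE 0.38, adjusted p = 0.807 in edgeR). In MSC it had 2321 ± 897 and 1077 ± 94.1 CPM (SD, n = 3; log2 fold change -1.11, SE 0.40, adjusted p = 0.137 in edgeR). Apoe, the apolipoprotein that remnant receptors bind, had the smallest p in OBC (-2.10, SE 0.76, adjusted p = 0.295) and in the average (-1.02, SE 0.34, adjusted p = 0.0842).

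Of 14 genes of fatty acid uptake and activation 5 were tested, and all 5 were negative in MSC (median -0.60) and 4 in EC (median -0.25). Cav1, the main coat protein of caveolae, had 2575 ± 669 CPM in MSC WT and 1158 ± 476 in MSC Wnt5a (SD, n = 3; log2 fold change -1.21, SE 0.39, adjusted p = 0.0878 in edgeR). Cavin1, a caveolar coat protein and the most abundant gene of the list, had the smallest p in EC, where it stood at 7659 ± 612 CPM in WT and 11210 ± 3939 in Wnt5a (log2 fold change 0.54, SE 0.42, adjusted p = 0.758). Cav2 had it in the average (-0.91, SE 0.38, adjusted p = 0.185). Aqp7, a glycerol channel, had it in OBC (adjusted p = 0.607), where Wnt5a libraries had 0 UMIs and no fold is given.

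The regulators of endothelial fatty acid uptake had 4 of 12 genes tested, with medians of 0.20 in EC and -0.69 in MSC. Nrp1, a VEGF co-receptor, had the smallest p in MSC (log2 fold change -0.95, SE 0.37, adjusted p = 0.161 in edgeR) and in the average (-0.51, SE 0.24, adjusted p = 0.271), and Tcf15, a transcription factor of capillary endothelium, in EC (0.38, SE 0.42, adjusted p = 0.838) and OBC (1.41, SE 0.83, adjusted p = 0.645). Of 15 genes of lipid storage and oxidation only Etfb, an electron carrier subunit of fatty acid oxidation, was tested, at log2 fold changes of 0.20 in EC, -0.19 in OBC and 0.28 in MSC.

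Partners of the other pair were also counted. Of 15 genes linked to Rgcc, the TGF-beta receptors and cell cycle kinases, 2 were tested. Eng, the endothelial TGF-beta co-receptor, had log2 fold changes of -0.30 (SE 0.40, adjusted p = 0.884 in edgeR) in EC and -0.76 (SE 0.46, adjusted p = 0.387) in MSC, against 1.03 (SE 0.95, adjusted p = 0.819) in OBC and -0.01 on average, and Acvrl1 had -0.05 (SE 0.39, adjusted p = 0.97) on average. Of 15 genes linked to Igfbp7, 7 were tested, with medians of 0.45 in EC and -0.64 in MSC. Cd93, the endothelial receptor that IGFBP7 binds, had 2434 ± 324 CPM in EC WT and 1571 ± 363 in EC Wnt5a (log2 fold change -0.61, SE 0.36, adjusted p = 0.65), and in MSC 1913 ± 318 and 954 ± 212 CPM (-0.97, SE 0.39, adjusted p = 0.17). Col4a2, a type IV collagen chain, came nearest to the threshold in the average (-0.84, SE 0.26, adjusted p = 0.0576), and Igfbp4 had the smallest p in OBC (-1.43, SE 0.64, adjusted p = 0.501).

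LSK cells lie outside the table from which the genes were picked, so the genotype test there uses no niche values. Earlier results of these data were known when genes, lists and tests were chosen, so it is not taken as independent. Their libraries held 1254553 to 5775459 reads, and CPM here are reads per 1000000 without a length term, so levels of different genes are not set against each other. Of the 6 genes 4 passed the low-count filter and 0 of these 4 passed edgeR's test, where 0.0229% of 13098 genes passed and 18.4% had an unadjusted p under 0.05. DESeq2 and limma voom also called 0 of the 4. All 6 genes together took from 0.00667% to 0.0138% of LSK reads.

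Fabp5, near the floor in the niche, had the smallest p in LSK. It ran from 35.2 CPM to 55.6, with a median of 41.8, in the 6 WT libraries. In Wnt5a replicates 1 to 5 it was at 37.9, 32.9, 22.6, 21.9 and 30.0 CPM, and Wnt5a replicate 1 alone reached into the WT range. The log2 fold change was -0.58 (SE 0.26, adjusted p = 0.248 in edgeR, unadjusted p = 0.0403), which did not pass, and all 5 Wnt5a libraries were below the WT median.

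Fabp4 ran from 2.50 CPM to 16.8 in WT, median 9.47, and stood at 4.83, 8.59, 9.78, 0.754 and 0 CPM in Wnt5a, a log2 fold change of -0.93 (SE 0.76, adjusted p = 0.53 in edgeR). Cd36 ran from 0.352 CPM to 12.4 in WT, median 8.38, and stood at 9.66, 30.6, 1.83, 27.2 and 21.2 CPM in Wnt5a, a log2 fold change of 1.35 (SE 0.74, adjusted p = 0.338 in edgeR). The groups overlapped for both genes, with 3 of 5 Wnt5a libraries above every WT library for Cd36. Wnt5a replicates 4 and 5, lowest for Fabp4 and among those 3 for Cd36, were the only LSK libraries without a 4-digit label number. All WT libraries had such a number, so label series and genotype cannot be fully told apart. Over all alternatives run, the Fabp4 log2 fold change was -1.525 to -0.285. Rgcc ran from 20.3 CPM to 52.0 in WT, median 37.8, and stood at 42.4, 19.5, 36.7, 27.2 and 93.9 CPM in Wnt5a, a log2 fold change of 0.22 (SE 0.38, adjusted p = 0.798 in edgeR). Its sign rested on Wnt5a replicate 5, without which the log2 fold change was -0.27.

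The other 2 genes were at the edge of detection in LSK. Gpihbp1 had 4 reads in WT replicate 4 and 0 in the other 10 libraries, where a count of 0 allows 0.480 to 2.4 CPM across the WT libraries. Igfbp7 had 0 to 36 reads per library. Of 60 genes of the pathway lists tested in LSK 0 passed edgeR's test (0.0229% of all genes) and 8 had an unadjusted p under 0.05 (18.4% of all genes). Among the smallest p values were those of Plin2, a lipid droplet coat protein, at a log2 fold change of -1.23 (SE 0.32, adjusted p = 0.0902 in edgeR), Vegfb, a ligand that promotes endothelial fatty acid uptake, at 1.19 (SE 0.36, adjusted p = 0.119), and the insulin receptor Insr, at -0.73 (SE 0.27, adjusted p = 0.173).

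**Figure D4:**
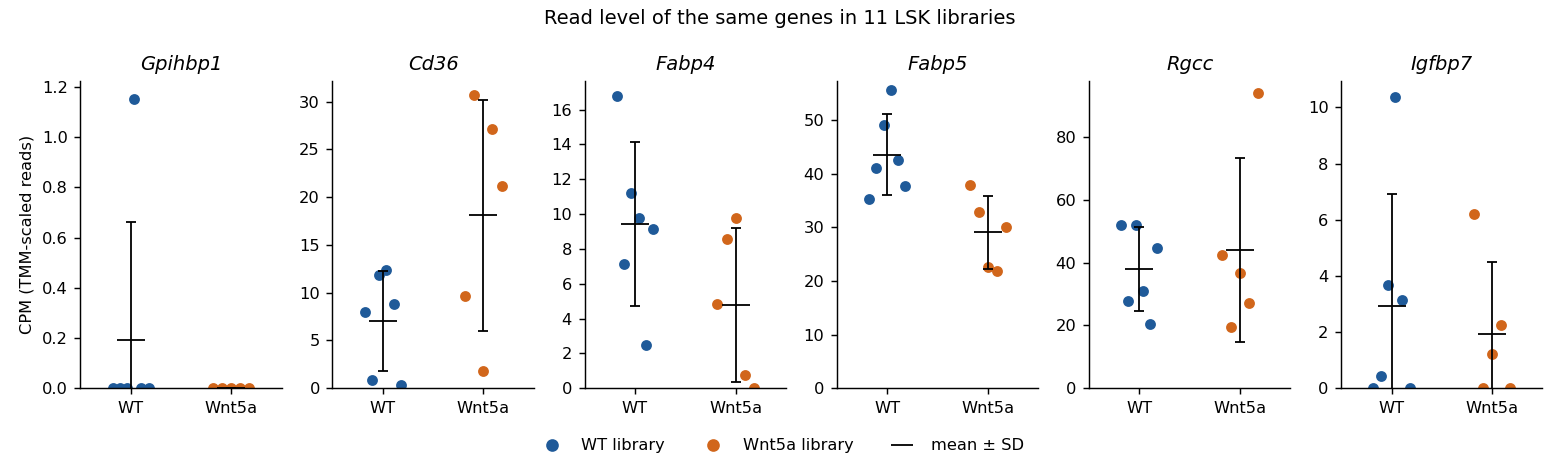
Level of the same genes (CPM of reads, TMM-scaled, linear axis from 0, a separate scale per gene) in 6 WT and 5 Wnt5a LSK libraries. Points are libraries and bars the mean ± SD, with the part below 0 not drawn. Fabp5 lies from 35.2 to 55.6 CPM in WT and from 21.9 to 37.9 in Wnt5a, and Gpihbp1 is above 0 in a single WT library.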

How the data were processed

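The deposited tables hold raw counts per Ensembl gene, UMI counts for the niche (18194 genes) and read counts for LSK (38924 genes). The submitters' processing notes name STAR, featureCounts and mm10 (GRCm38) and no version. The sources used here do not give how the authors collapsed UMIs, their annotation or strand use. Per the labels, LSK cDNA came from Smart-seq2 and niche cDNA was barcoded and pooled. Symbols were found for 17973 and 37607 IDs, and 28 spike-in entries were left out.

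Quasi-likelihood fits used edgeR 4.0.16 under R 4.3.3 with TMM scaling, robust dispersion and filterByExpr (minimum count 10, minimum total 15), on 1099 and 13098 genes, with a Benjamini-Hochberg adjusted p under 0.05 as threshold. The 18 niche libraries entered 1 fit with 6 group means. An SE is the log2 fold change over the square root of F. Floors are 3 counts, and as reads are not independent molecules they cover counting error only. No library pair within a group was identical, and the lowest chi-square per degree of freedom was 1.81. The fit was tested on simulated data.

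The 6 genes, the lists and the tests were chosen with earlier results of these data known. The naming rule gives the 6 genes, the smallest p per list and comparison, called list members (up to 2), and the 3 most alike genes (prior count of 2). Some genes the rule allows are summarised by count. Alternatives were RLE or plain totals, no filter, DESeq2 1.42.0, limma 3.58.1 (voom), fewer genes or libraries, and 2 added after the data were seen.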

Additional observations from a re-analysis of the deposited data

Results flagged for a closer look

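Igfbp7 in LSK WT replicate 4 stood at 10.37 CPM (36 reads), and the next of the 6 WT libraries was at 3.68 CPM. Gpihbp1 in the same library stood at 1.152 CPM (4 reads), with 0 in the other WT libraries. Both were singled out because the gap to the nearest library made up most of the group's range, which chance gives in about 5% of groups of normally spread values. That rate does not hold for Gpihbp1, since any single library with reads gives such a gap where the others are at 0. Nor is it sure for Igfbp7, which had 0 reads in WT replicates 1 and 6. All 6 genes were screened in both LSK groups, which raises the rate of finding some gap. The Gpihbp1 genotype difference in OBC minus that in MSC was 2.36 on the log2 scale, singled out because all Wnt5a libraries were above all WT libraries in OBC and below them in MSC. Tested directly, it did not pass (adjusted p = 0.157 in edgeR).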

How the results depend on the processing

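No paired analysis was possible because the niche replicate numbers are all different and the LSK numbers only follow accession order. In EC, OBC, LSK and the differences between populations 0 members passed under each alternative run, and all 6 genes had their lowest mean in OBC with plain totals, RLE size factors, without haemoglobin genes and with each library left out. In MSC, where 0 passed, RLE size factors gave 2, DESeq2 3, limma voom 1, the MSC libraries alone 3, the table without both EC WT 14 and EC Wnt5a 16 gave 3, and leaving out 1 library 0 to 3. With EC WT replicate 14 left out it was 3, with EC WT replicate 15 left out 1, and with MSC WT replicate 3 left out 2. In the average, where 2 passed, it was also 2 with RLE size factors, plain totals and DESeq2. It was 0 with no filter, 1 with limma voom, 1 without haemoglobin, mitochondrial and neutrophil genes, 0 scaled to pan-endothelial UMIs, and 0 to 2 with 1 library left out. The causes were not tested.

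The Fabp4 average (0.03) was -0.048 with RLE size factors, -0.024 with plain totals, -0.07 with no filter, -0.047 with DESeq2 and -0.12 without both EC WT 14 and EC Wnt5a 16, where Fabp4 in EC was -0.19, and -0.061 to 0.125 with 1 library left out. Fabp4 in MSC was 0.33 scaled to pan-endothelial UMIs. Rgcc in EC minus MSC was -0.061 with no filter, -0.47 scaled to pan-endothelial UMIs and -0.093 to 0.519 with 1 library left out. Rgcc in LSK was -0.22 with only libraries whose labels have 4-digit numbers. With 1 library left out, the lowest and highest values were -0.41 and 0.11 for Cd36 in EC, -0.018 and 0.38 for Fabp4 in EC, -0.027 and 0.472 for Fabp4 in OBC, -0.77 and 0.23 for Rgcc in OBC, and -0.27 and 0.41 for Rgcc in LSK.

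Over all alternatives the genes called were 0 to 22 in EC (4 reported), 3 to 18 in OBC (14), 0 to 115 in MSC (5), 14 to 71 in the average (34) and 0 to 1114 in LSK (3). RLE and plain totals moved the median of all genes in MSC by -0.20 and -0.23, and EC over OBC by 0.15 and 0.50. Depth limits OBC most, where 3 UMIs are worth up to 461.3 CPM.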
